A study of Mus musculus with 32 samples.

Results

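The genes described here encode the protein side of the nuclear splicing machinery and the large family of nuclear RNA-binding proteins that act beside it. Members were all non-control probes whose gene name, as a current symbol or a synonym, starts with Snrp, Snrnp, Sf3a, Sf3b, Hnrnp, Hnrp or Gemin, or is Smn1. The rule found 68 genes among 27640 genes or single probes, and 130 of 41174 probes. Of these genes, 31 belong to the small nuclear ribonucleoproteins (snRNPs, 54 probes), 8 to the SMN complex (12 probes) and 29 to the heterogeneous nuclear ribonucleoproteins (hnRNPs, 64 probes). A current symbol admitted 57 of them, 2 of which carry pseudogene names. The other 11 entered through an older name only, and are Ptbp1, Ddx42, Rbmxl2, Syncrip, Pcbp1, Rbmx, Ddx20, Pcbp2, Lsm2, Eftud2 and Rbmxl1.

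RNA came from cells cut out of stained lumbar spinal cord sections with a laser, 500 cells per female mouse, either motor neurons of the anterior horn or the glial cells around them. The transgenic mice were SOD1-G93A animals of 8 weeks on a B6SJL background (strain B6SJL-Tg(SOD1-G93A)1Gur), which carry a mutant human superoxide dismutase gene, and TAU-P301L animals of 16 weeks on a B6D2F1 background, which carry a mutant tau gene. Controls were littermates of each colony without the transgene, so model, age and strain differ together between the colonies. There were 4 comparisons, namely SOD1-G93A motor neurons, SOD1-G93A glia, TAU-P301L motor neurons and TAU-P301L glia, each against littermate controls, with 4 littermate pairs per comparison and 2 dye-swapped arrays per pair (32 Agilent arrays with 2 colours). The labels do not name the promoter behind either transgene, and they do not say whether the motor neuron and glia captures of a colony came from the same animals.

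Splicing is carried out by the spliceosome, in which each major snRNP combines a small nuclear RNA with proteins particular to it and, in most cases, a shared ring of Sm proteins. The SMN complex, built from the survival motor neuron protein and the Gemins, places the Sm ring on these RNAs in the cytoplasm, and loss of SMN1 causes spinal muscular atrophy, a disease of motor neurons. The hnRNPs coat new transcripts and steer splice site choice, RNA export and decay, and mutations in HNRNPA1 and HNRNPA2B1 have been found in families with motor neuron and multisystem disease.

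The captures and arrays limit what can be read from these genes. The extracts had between 3238 and 19144 genes well above background. Among the control extracts, those of SOD1-G93A motor neuron pair 3 and TAU-P301L glia pair 4 stood apart, with median correlations with the other control extracts of 0.675 and 0.749, against 0.83 to 0.911 for the rest. After their signs were turned to transgenic over control, the dye-swapped arrays of a pair correlated between -0.745 (TAU-P301L glia pair 1) and 0.672 (SOD1-G93A motor neuron pair 4), and SOD1-G93A glia pair 2 was also clearly below 0 at -0.46. The cell type labels were borne out in part. Between control motor neurons and control glia, Nefm, a neurofilament subunit, differed by 1.67 on the log2 scale (limma adjusted p = 6.653e-05), the myelin gene Mbp by -0.94 (limma adjusted p = 0.002404) and the astrocyte enzyme Glul by -1.60 (limma adjusted p = 0.003169). Chat, the enzyme that makes acetylcholine and defines motor neurons, was well above background in 4 of 8 motor neuron extracts and 2 of 8 glia extracts and differed by -0.06 (limma adjusted p = 0.432). Slc18a3, another motor neuron marker, was well above background in 3 of 8 motor neuron extracts and 1 of 8 glia extracts, so it was not tested. The probes of the targeted genes did not mark the transgenic extracts. Sod1 had a mean log2 ratio of -0.08 ± 0.16 (SD, n = 4 pairs) in SOD1-G93A motor neurons and Mapt one of -0.10 ± 0.35 in TAU-P301L motor neurons, with limma adjusted p values of 0.761 and 0.995, and whether these probes detect the transgene transcripts was not tested. In glia Sod1 had -0.11 ± 0.30 in SOD1-G93A mice and Mapt 0.08 ± 0.76 in TAU-P301L mice (limma adjusted p = 0.649 and 0.928). Prnp, the prion protein gene, had 1.08 ± 0.30 in TAU-P301L motor neurons and 0.89 ± 0.20 in TAU-P301L glia (limma adjusted p = 0.252 and 0.132).

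Control motor neurons and control glia differed in 15 of the 53 members tested (28.3%), whereas 39.5% of all 13054 genes tested differed in this comparison by limma with an adjusted p under 0.05. A total of 13 members (24.5%) were higher in motor neurons, against 27.5% of all genes tested, and 2 (3.77%) were lower in motor neurons, against 12% of all genes. An unadjusted p under 0.05 was reached by 19 of 53 members (35.8%), against 49.7% of all genes. The motor neuron extracts all lay above the glia extracts for 6 members, against 5.12% of all genes, and all below for 0, against 1.46%. Of these 6, all but Rbmxl1 (Hnrnph1, Ddx20, Hnrnpc, Snrnp48 and Sf3a1) passed the filter on dim probes through motor neurons only, so nothing is read from this count. The 13 were Hnrnph1, Rbmxl1, Hnrnpr, Hnrnpc, Rbmx and Hnrnpll among the hnRNPs, Snrnp35, Ddx42, Snrnp48, Snrpd1, Sf3a1 and Snrpe among the snRNP genes, and Ddx20 of the SMN complex. The 2 that were lower in motor neurons were Snrpg and Hnrnpdl. Without the control extract of SOD1-G93A motor neuron pair 3, which stood apart, 24 members passed (14 of the 15 among them), and 23 passed without both extracts that stood apart (13 of the 15 among them). Calls over the array rose with them, to 6035 genes without pair 3 (4517 higher and 1518 lower in motor neurons) and to 4005 higher and 1466 lower without both extracts, against 3592 higher and 1565 lower with all extracts. Levels here are log2 single-channel intensities of 8 motor neuron and 8 glia control extracts, and differences are motor neurons minus glia with the colony as a covariate. In captures of a fixed cell number, fewer cells of a type and less RNA per cell cannot be told apart. Motor neuron and glia arrays were also scanned in different batches and with different software versions, so cell type, scan and software cannot be told apart. In the same comparison 6 of 10 motor neuron markers and 4 of 7 interneuron markers were higher in motor neurons and 1 motor neuron marker lower, while 5 of 9 astrocyte, 5 of 8 oligodendrocyte, 1 of 8 microglia, 2 of 6 endothelial and pericyte and 0 of 2 red cell markers were lower and none of these higher.

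The smallest adjusted p was that of Hnrnph1, an hnRNP that binds runs of guanines and regulates nearby exons. Its log2 intensity had a lowest, median and highest value of 6.46, 6.61 and 6.74 in motor neurons, against 5.78, 6.03 and 6.35 in glia. The 8 motor neuron extracts all lay above the 8 glia extracts, and the difference was 0.59 ± 0.08 (SE, limma adjusted p = 0.0001492). Its probe was well above background in 6 motor neuron extracts and 2 glia extracts. Rbmxl1, an intronless relative of the X-linked splicing factor gene Rbmx, had 7.72, 8.04 and 8.71 in motor neurons, against 6.79, 7.26 and 7.53 in glia, again without overlap, and a difference of 0.86 ± 0.14 (SE, limma adjusted p = 0.0003552). Rbmx itself differed by 0.61 ± 0.13 (SE, limma adjusted p = 0.00296), and whether the probes of these near-identical genes cross-hybridise was not tested. Hnrnpr, which travels in motor axons with beta-actin mRNA, had 6.41, 6.94 and 7.10 in motor neurons, against 6.02, 6.35 and 6.54 in glia. The groups overlapped through the lowest motor neuron extract, the one of SOD1-G93A pair 3 that stood apart, and the difference was 0.61 ± 0.10 (SE, limma adjusted p = 0.0006367). Smaller differences passed for Hnrnpc, which binds uridine tracts (0.22 ± 0.04, SE, limma adjusted p = 0.001787, no overlap), and for Hnrnpll, a CA-repeat binding paralogue of Hnrnpl (0.23 ± 0.09, SE, limma adjusted p = 0.0497). The Hnrnpll call was lost in 12 of the 16 fits that left out 1 pair.

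Among the snRNP genes, 6 of 25 tested were higher in motor neurons. Snrnp35 and Snrnp48 encode proteins of the U11/U12 particle of the minor spliceosome. Snrnp35 had a lowest, median and highest log2 intensity of 6.49, 6.76 and 6.94 in motor neurons, against 5.99, 6.32 and 6.65 in glia, with some overlap and a difference of 0.46 ± 0.08 (SE, limma adjusted p = 0.0009992). Its probe was well above background in 7 motor neuron extracts and 3 glia extracts. Snrnp48 had 6.30, 6.40 and 7.01 in motor neurons, against 5.80, 6.09 and 6.19 in glia, without overlap (0.41 ± 0.09, SE, limma adjusted p = 0.002385), with its probe well above background in 5 motor neuron extracts and 1 glia extract. The helicase Ddx42, which associates with the SF3b part of the U2 snRNP, differed by 0.58 ± 0.11 (SE, limma adjusted p = 0.001372), and the U2 subunit Sf3a1 by 0.36 ± 0.08 (SE, limma adjusted p = 0.00308). The Sf3a1 groups did not overlap. Another probe of Ddx42 gave 0.09 and another of Sf3a1 gave 0.07, and with the mean over probes the differences were 0.32 (limma adjusted p = 0.0135) and 0.22 (limma adjusted p = 0.0143). Rbmx likewise had 0.23 from another probe and 0.42 (limma adjusted p = 0.00867) with the mean over probes. The Sm ring genes Snrpd1 (0.31 ± 0.07, SE, limma adjusted p = 0.002496) and Snrpe (0.31 ± 0.11, SE, limma adjusted p = 0.040) were also higher in motor neurons, and the Snrpe call was lost in 7 of the 16 fits that left out 1 pair. Ddx20, the Gemin3 helicase of the SMN complex, had 6.40, 6.62 and 7.04 in motor neurons, against 6.09, 6.15 and 6.33 in 7 glia extracts with a value. These groups did not overlap, and the difference was 0.46 ± 0.07 (SE, limma adjusted p = 0.0005447). The Ddx20 probe was well above background in 8 motor neuron extracts and 2 glia extracts.

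Snrpg, the Sm ring protein SmG, went the other way and had the largest difference among the members tested. It had 7.61, 8.98 and 9.34 in motor neurons, against 8.89, 9.996 and 10.57 in glia, and a difference of -1.04 ± 0.24 (SE, limma adjusted p = 0.004015), which is a ratio of 0.488 of motor neuron over glia intensity. The groups overlapped. Without the 2 control extracts that stood apart it was -0.76 (limma adjusted p = 0.004515, from 0.0004419 to 0.133 over all alternatives). Within the SOD1-G93A littermates alone Snrpg differed by -1.37 (limma adjusted p = 0.0361), and within the TAU-P301L littermates by -0.70 (limma adjusted p = 0.133). Hnrnpdl, a relative of the decay factor Hnrnpd, had 6.39, 7.01 and 7.16 in motor neurons, against 6.96, 7.29 and 7.88 in glia (-0.47 ± 0.14, SE, limma adjusted p = 0.0180). Without the 2 extracts that stood apart Hnrnpdl differed by -0.35 (limma adjusted p = 0.0533, from 0.009793 to 0.975 over all alternatives), and the mean over its probes gave 0.004.

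**Figure D1:**
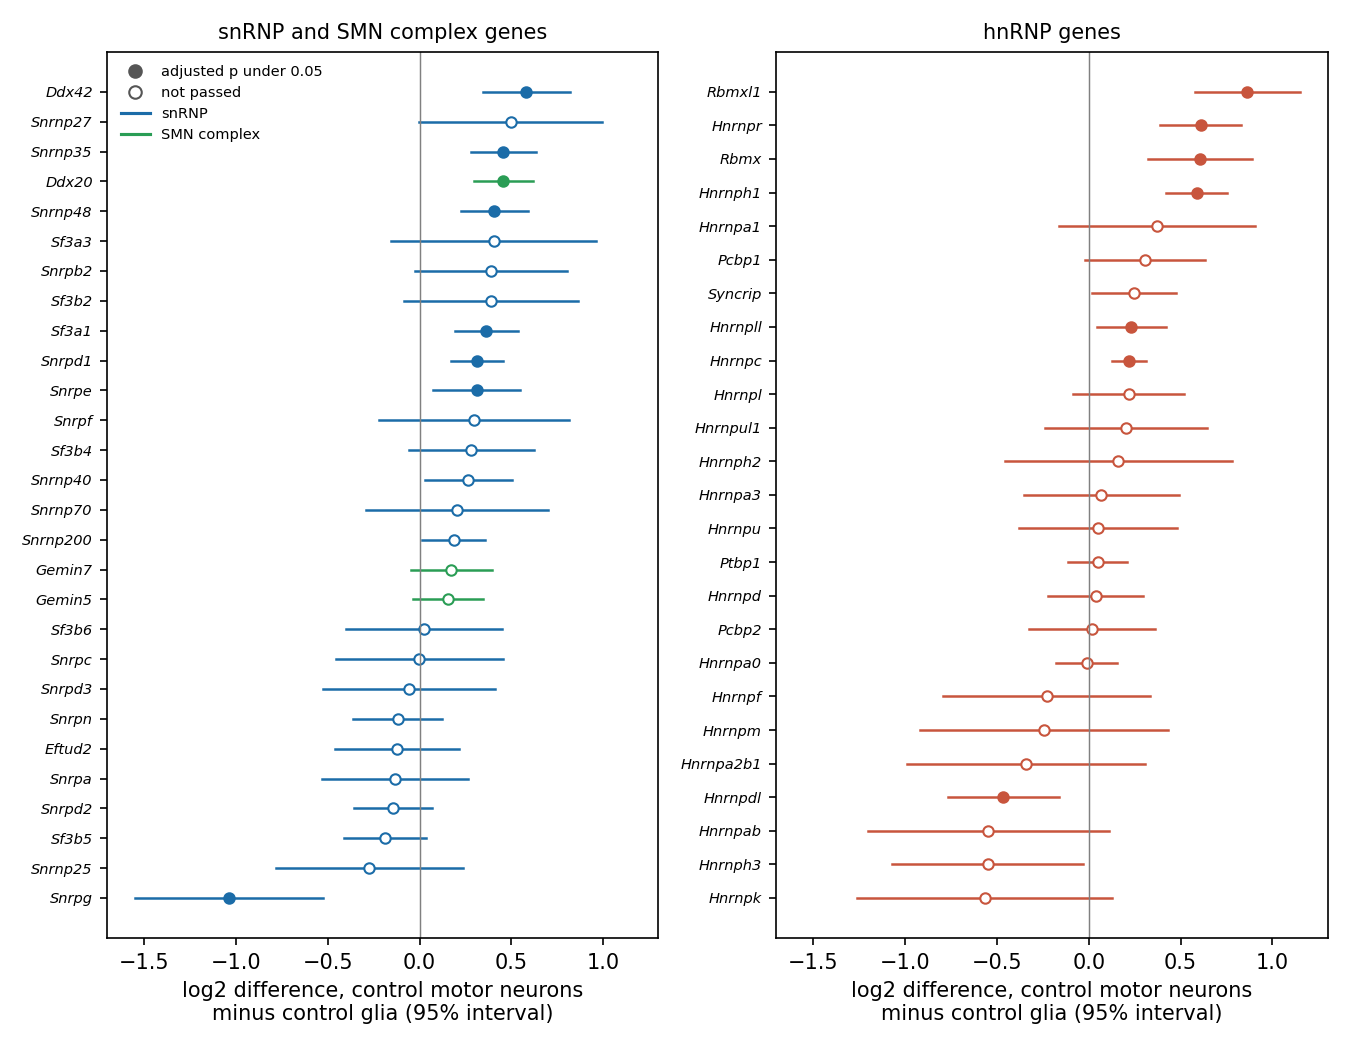
Log2 difference of control motor neurons minus control glia for the 53 members tested, with snRNP and SMN complex genes on the left and hnRNP genes on the right. Points are fitted differences with 95% intervals over 8 extracts of each cell type, and filled points passed a limma adjusted p of 0.05 (13 above 0 and 2 below, Snrpg at -1.04 and Hnrnpdl at -0.47).

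Many of these calls rest on probes that were dim in glia. Of the 53 members, 13 were tested only because their probe was well above background in motor neurons, and 9 of the 15 calls came from these. The 9 calls were those of Hnrnph1, Ddx20, Snrnp35, Hnrnpc, Snrnp48, Snrpd1, Rbmx, Sf3a1 and Snrpe. Of the 13 members, 11 had a difference above 0, while Sf3b5 and Hnrnpa0 lay at -0.19 and -0.01. Such genes are brighter in motor neurons on the measure that admitted them, so their calls are no separate support. Among the 40 members well measured in both cell types, 6 differed, against 36.4% of all genes measured in both. Among genes that did not pass, motor neuron differences of both signs occurred. The U2 genes Snrpb2 (0.39), Sf3a3 (0.40) and Sf3b2 (0.39) and the tri-snRNP gene Snrnp27 (0.50) were above 0, with limma adjusted p values of 0.104 to 0.231. The G-run binder Hnrnph3 (-0.55), the poly-C binder Hnrnpk (-0.57), Hnrnpab (-0.55), Hnrnpa2b1 (-0.34), the U11/U12 gene Snrnp25 (-0.27), the small SF3b subunit Sf3b5 (-0.19), Snrpd2 (-0.15) and the imprinted neuronal Sm gene Snrpn (-0.12) were below 0, with limma adjusted p values of 0.084 to 0.416. Hnrnpa1 (0.37), Snrnp70 of the U1 particle (0.20) and Hnrnpu (0.05) had limma adjusted p values of 0.248, 0.503 and 0.856. Hnrnpa1 passed without the extract of SOD1-G93A motor neuron pair 3 (0.55, limma adjusted p = 0.0188), Hnrnpab without that of TAU-P301L glia pair 4 (-0.76, limma adjusted p = 0.0366) and Hnrnph3 without that of TAU-P301L motor neuron pair 1 (-0.68, limma adjusted p = 0.0469). The median difference was 0.27 over 25 snRNP genes, 0.17 over 3 SMN complex genes and 0.07 over 25 hnRNP genes, against 0.11 over all genes tested. These medians include the members tested through motor neurons only, so they are no separate support either. The snRNP median exceeded that of all genes by 0.157 here, and by 0.064 with no filter (18 of 31 genes above 0). For the hnRNPs the same gaps were -0.039 and 0.032 (18 of 29 above 0 with no filter).

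**Figure D2:**
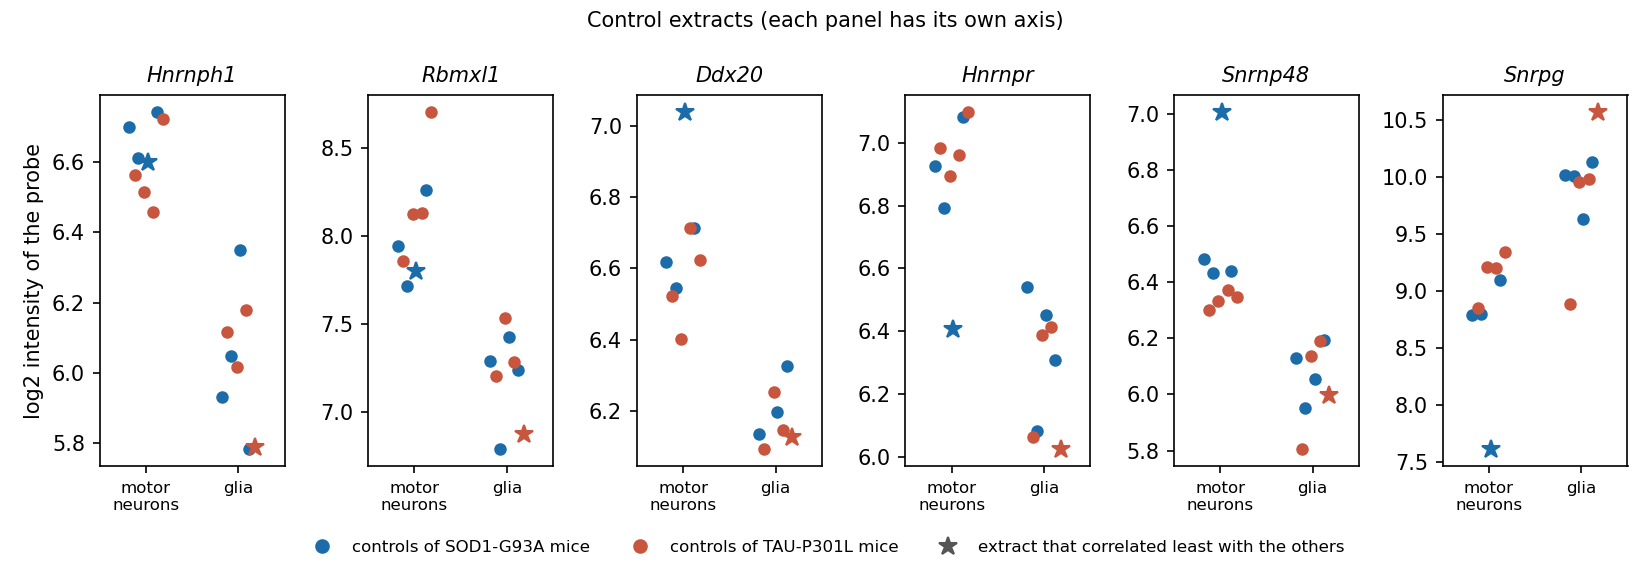
Log2 single-channel intensity of 6 members in the 16 control extracts, motor neurons left of glia, each gene on its own axis. Points are extracts and stars are the 2 extracts that correlated least with the others. The motor neuron points of Hnrnph1, Rbmxl1, Ddx20 and Snrnp48 lie above all glia points, Hnrnpr overlaps through a starred extract, and Snrpg is lower in motor neurons. Hnrnph1, Ddx20 and Snrnp48 passed the filter on dim probes through motor neurons only, so nothing is read from their lack of overlap.

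Promoters are shown for 2 genes called higher in motor neurons (Hnrnph1 and Ddx20), for the gene that was lowest relative to glia (Snrpg), and for the gene with the highest mean ratio in TAU-P301L motor neurons and glia (Snrnp25). RefSeq promoters of 300 bases around an annotated start, from the table on build GRCm38.p6, were matched for 59 of the 68 members. The Hnrnph1 window lies inside the listed span of the gene (50375257 to 50386528), and most of the Ddx20 window lies inside that of Ddx20 (to 105687788). Which transcript start each window belongs to was not checked. Capitals mark exact matches, on either strand, to GGGCGG (the GC box), to CCAAT (the box of that name), to CCGGAAG (an ETS site), to TGACGTCA (the cAMP response element, CRE), to TATAAA (the TATA box) and to TCTCGCGA, and matches of different motifs may overlap.
Hnrnph1, chr11:50378041-50378340, plus strand: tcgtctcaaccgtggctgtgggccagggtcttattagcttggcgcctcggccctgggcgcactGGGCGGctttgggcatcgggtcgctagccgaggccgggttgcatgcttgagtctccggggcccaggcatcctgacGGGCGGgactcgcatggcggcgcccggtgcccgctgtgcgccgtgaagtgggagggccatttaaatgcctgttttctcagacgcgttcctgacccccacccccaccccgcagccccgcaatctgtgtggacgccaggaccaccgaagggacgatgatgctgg
Ddx20, chr3:105687522-105687821, minus strand: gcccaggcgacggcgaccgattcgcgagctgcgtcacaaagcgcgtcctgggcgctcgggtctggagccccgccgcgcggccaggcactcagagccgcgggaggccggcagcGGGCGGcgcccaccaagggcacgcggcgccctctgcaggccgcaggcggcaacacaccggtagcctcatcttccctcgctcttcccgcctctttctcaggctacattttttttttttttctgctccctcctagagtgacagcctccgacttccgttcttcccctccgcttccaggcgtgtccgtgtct
Snrpg, chr6:86371290-86371589, plus strand: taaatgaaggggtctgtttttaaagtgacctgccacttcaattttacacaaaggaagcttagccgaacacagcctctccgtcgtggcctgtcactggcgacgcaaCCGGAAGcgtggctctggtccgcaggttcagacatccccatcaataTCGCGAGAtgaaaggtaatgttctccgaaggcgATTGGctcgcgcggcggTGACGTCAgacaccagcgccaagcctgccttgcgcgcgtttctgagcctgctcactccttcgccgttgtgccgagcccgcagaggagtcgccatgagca
Snrnp25, chr11:32205165-32205464, plus strand: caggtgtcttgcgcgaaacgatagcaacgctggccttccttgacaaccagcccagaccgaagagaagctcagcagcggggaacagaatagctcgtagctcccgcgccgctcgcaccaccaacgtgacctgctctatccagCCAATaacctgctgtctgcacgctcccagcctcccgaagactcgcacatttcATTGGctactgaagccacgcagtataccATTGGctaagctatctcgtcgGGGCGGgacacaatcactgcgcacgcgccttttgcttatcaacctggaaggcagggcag
Hnrnph1 and Ddx20 matched the GC box and none of the other motifs. Snrpg held a CCAAT box, an ETS site, a CRE and TCTCGCGA but no GC box, and Snrnp25 held CCAAT boxes and a GC box. Over all matched members a GC box was found in 69.5% of promoters, against 35.7% of all 32851 promoters, and an ETS site in 30.5%, against 8.86%. The shares for the members and for all promoters were 39% and 37.4% for CCAAT, 10.2% and 13.6% for TATAAA, 5.08% and 1.79% for the CRE and 3.39% and 0.995% for TCTCGCGA. The median GC content was 59.3% in members and 52.7% in all promoters. Of the 11 promoters of genes higher in motor neurons, 7 held a GC box, 2 an ETS site and 3 a CCAAT box. These matches describe the letters in a window and say nothing of binding.

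No member passed an adjusted p of 0.05 in any of the 4 comparisons of transgenic with control animals. This count of 0 stands against 1 gene of 13296 called in SOD1-G93A motor neurons (0.00752%), 8 of 10436 in SOD1-G93A glia (0.0767%), 0 of 11656 in TAU-P301L motor neurons (0%) and 0 of 8909 in TAU-P301L glia (0%), all by limma over all genes tested. In SOD1-G93A glia the 8 genes were 0.0479% of those tested on the higher side and 0.0287% on the lower side. An unadjusted limma p under 0.05 was reached by 4 of 54 members tested in SOD1-G93A motor neurons (7.41%, against 10.6% of all genes), 6 of 43 in SOD1-G93A glia (14%, against 16.2%), 3 of 54 in TAU-P301L motor neurons (5.56%, against 4.19%) and 2 of 40 in TAU-P301L glia (5%, against 13.8%). These shares lay near or below those of all genes. The values that follow therefore describe the 4 pairs of each comparison, as log2 ratios of transgenic over control in pairs 1 to 4 with their mean ± SD. The 4 comparisons share no extract.

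In SOD1-G93A motor neurons the ratios of most members lay slightly below 0. Of 54 members tested, 40 had a mean below 0, 21 of 25 among the snRNP genes and 18 of 25 among the hnRNPs, while the genes of the whole array were split evenly with 50% above 0. The median was -0.08 for snRNP genes (range -0.21 to 0.23) and -0.07 for hnRNPs (range -0.20 to 0.18), against 0 for all genes. The snRNP median was below 0 in each of the 4 pairs, at -0.03, -0.05, -0.07 and -0.08. The hnRNP median was not, with 0.10, -0.006, -0.02 and -0.20 in pairs 1 to 4. Median centring of the arrays in place of loess gave an snRNP median of -0.15 and an hnRNP median of -0.20. Within the pairs of scan 2 alone the hnRNP median was 0.06. Class medians by dye were not computed, and single snRNP genes varied. Ddx42 had -0.15 with the SOD1-G93A extract in Cy5 and 0.10 with it in Cy3, while Snrpb2 had -0.15 and -0.21. All 4 pairs were below 0 for 5 snRNP genes and for Ddx20, 6 of 54 members, against 7.91% of all genes tested, and 2 members were above 0 in all 4 pairs, against 5.43%.

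The genes with the smallest p below 0 in SOD1-G93A motor neurons were 2 Sm genes, the SMN complex helicase and an hnRNP. Snrpd1, the Sm ring protein SmD1, had log2 ratios of -0.21, -0.04, -0.02 and -0.18 (-0.11 ± 0.10, SD, n = 4 pairs, limma adjusted p = 0.357). Snrpn, which encodes the SmN protein of neurons from an imprinted locus, had -0.27, -0.06, -0.07 and -0.12 (-0.13 ± 0.10, limma adjusted p = 0.418). Ddx20 had -0.20, -0.09, -0.11 and -0.11 (-0.13 ± 0.05, limma adjusted p = 0.444). All 4 pairs were below 0 for each of these 3 genes, and the means were small. With the SOD1-G93A extract in Cy5 and in Cy3, the means were -0.23 and 0.01 for Snrpd1. They were -0.17 and -0.09 for Snrpn and -0.14 and -0.11 for Ddx20. Hnrnpll had -0.05, 0.09, -0.46 and -0.17 (-0.15 ± 0.23, limma adjusted p = 0.470), so its pairs differed in sign. The other genes with 4 pairs below 0 were the SF3b subunit Sf3b4 (-0.13 ± 0.10, limma adjusted p = 0.503), Snrnp35 (-0.08 ± 0.08, limma adjusted p = 0.563) and Snrnp48 (-0.09 ± 0.07, limma adjusted p = 0.490). Among the 8 tested genes of the U2 particle, 7 had means below 0, from -0.18 for Snrpb2 to -0.025 for Sf3a1, with Sf3b6 at 0.02.

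On the other side of 0 in SOD1-G93A motor neurons stood Pcbp2, a poly-C binding protein that stabilises mRNAs, with 0.34, 0.03, 0.004 and 0.14 (0.13 ± 0.15, SD, n = 4 pairs, limma adjusted p = 0.450). Snrpg had 0.11, 0.12, 0.38 and 0.29 (0.23 ± 0.13, limma adjusted p = 0.529). Both were above 0 in all 4 pairs, but with median centring Pcbp2 was at 0 and Snrpg at -0.06. Snrpg was 0.18 without pair 3, whose control extract stood apart. Its mean was 0.44 with the SOD1-G93A extract in Cy5 and 0.01 with it in Cy3. Snrpd2, another Sm protein, had a mean of 0.07 (limma adjusted p = 0.587). Hnrnpdl had -0.05, -0.12, -0.03 and 0.92 (0.18 ± 0.49, limma adjusted p = 0.616), so that pair 4 alone set its sign. Of the members chosen for every comparison, Snrnp70 (-0.15), Hnrnpa1 (-0.15), Hnrnpa2b1 (-0.13), Hnrnpu (-0.09), Snrnp25 (-0.06) and Hnrnpk (-0.03) had limma adjusted p values of 0.642 to 0.954 there. Pair 4 was the lowest pair for Hnrnpa1 (-0.67), Hnrnpa2b1 (-0.71), the RNA-binding Hnrnpm (-0.76), the poly-C binder Pcbp1 (-0.47) and Snrnp27 (-0.85). In pair 4 the SOD1-G93A extract had 5429 genes well above background and its control 8472, while in pairs 1 to 3 the SOD1-G93A extract had more than its control. The part of this imbalance in the pair 4 ratios was not tested. The summed motor neuron markers had log2 ratios of -0.74, -0.24, -0.06 and 0.26 in pairs 1 to 4 of this comparison (sums of 3212 to 27049 in SOD1-G93A extracts, against 3339 to 26303 in controls), and 8 of the 11 motor neuron markers tested had means below 0 (median -0.22). In the same comparison 8 of 8 oligodendrocyte markers (median 0.13) and 7 of 10 astrocyte markers (median 0.10) had means above 0, and 0 markers of any of these lists passed by limma. Their part in these ratios was not tested.

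**Figure D3:**
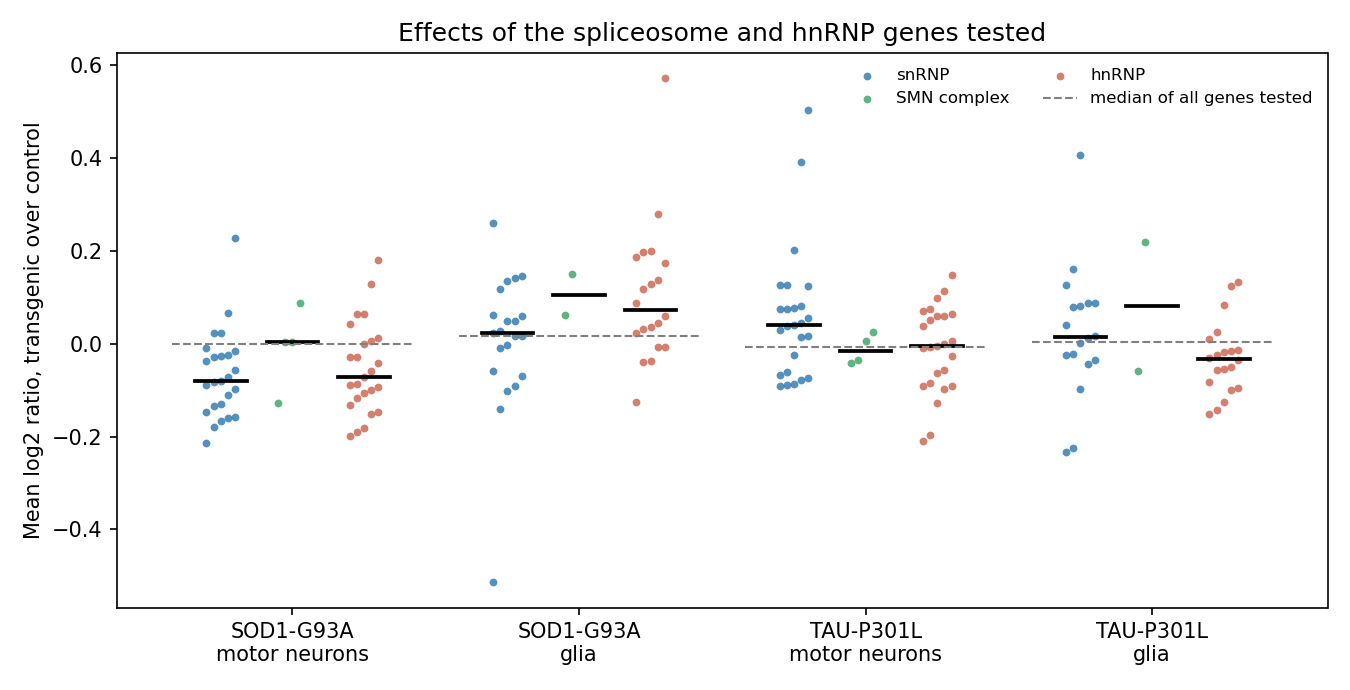
Mean log2 ratio of transgenic over control for each member tested, by class (snRNP, SMN complex, hnRNP) in the 4 comparisons. Points are genes, black bars the class medians and dashed lines the median of all genes tested. In SOD1-G93A motor neurons the snRNP and hnRNP medians lie at -0.08 and -0.07, and single genes stand out elsewhere, such as Hnrnpu at 0.57 and Snrpg at -0.51 in SOD1-G93A glia and Snrnp25 at 0.50 in TAU-P301L motor neurons.

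In SOD1-G93A glia more hnRNP genes had ratios above than below 0, and Hnrnpu, Snrpg and Snrpa had the smallest p values. The hnRNP median was 0.07 with 15 of 20 genes above 0 (range -0.13 to 0.57), and the snRNP median 0.02 with 13 of 21 above 0 (range -0.51 to 0.26), against 0.02 and 56.8% above 0 for all genes. The hnRNP median was 0.30 with median centring (18 of 20 above 0, against 0.07 for all genes), 0.16 from Agilent's processed ratios and 0.003 within the pairs of scan 3, and the snRNP median was 0.13 with median centring and -0.05 without pair 3. The summed endothelial and pericyte markers had log2 ratios of 0.27, 0.36, -0.12 and 0.50 in pairs 1 to 4 (sums of 536 to 974 in SOD1-G93A extracts, against 417 to 972 in controls), and their part in these ratios was not tested. All 4 pairs lay above 0 for 4 members and below 0 for 1, against 9.55% and 9.6% of all genes.

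Hnrnpu, a large chromatin-associated hnRNP also known as scaffold attachment factor A, had log2 ratios of 0.20, 1.21, 0.06 and 0.81 in SOD1-G93A glia (0.57 ± 0.54, SD, n = 4 pairs, limma adjusted p = 0.0867). All 4 pairs were above 0, and the spread was as wide as the mean. Over the alternative settings the adjusted p ran from 0.0528 to 0.426. The mean was 0.20 with the SOD1-G93A extract in Cy5 and 0.95 with it in Cy3, and 0.44 in the pairs of scan 3. Without pair 2, whose dye-swapped arrays correlated below 0, it was 0.36 (limma adjusted p = 0.282), and another Hnrnpu probe had -0.14 ± 0.15 with 1 of 4 pairs above 0. Snrpg had -0.13, -0.89, -0.42 and -0.62 (-0.51 ± 0.32, SD, n = 4 pairs, limma adjusted p = 0.0829, from 0.0505 to 0.707 over the alternatives), with all 4 pairs below 0. It was -0.39 without pair 2, -0.52 in the pairs of scan 3 and -0.19 with median centring. The SOD1-G93A glia ratio and the level in control glia share the same control extracts, in which the level of Snrpg was high. Snrpa, the A protein of the U1 particle, which binds a stem-loop of U1 RNA, had 0.26, 0.31, 0.10 and 0.36 (0.26 ± 0.11, limma adjusted p = 0.105), and its pairs were the closest together of the 3.

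The next genes by p in SOD1-G93A glia were Pcbp2, with 0.23, 0.07 and 0.22 in the 3 pairs with a value (0.17 ± 0.09, SD, limma adjusted p = 0.175), and Ddx42, with 0.23, 0.05, 0.07 and 0.19 (0.14 ± 0.09, limma adjusted p = 0.260). Both were above 0 in every pair measured, as was Hnrnpul1, a relative of Hnrnpu (0.19 ± 0.11, limma adjusted p = 0.291). With the SOD1-G93A extract in Cy5 and in Cy3, the means were -0.05 and 0.32 for Ddx42 and 0.01 and 0.36 for Hnrnpul1. Those of Pcbp2 were 0.17 and 0.115. Below 0 after Snrpg came Snrpd2 (-0.07 over 3 pairs, limma adjusted p = 0.563), Eftud2, the GTPase of the U5 particle (-0.09 ± 0.22, limma adjusted p = 0.653), and Hnrnpdl (-0.13 ± 0.16, limma adjusted p = 0.725). Of the others chosen for every comparison, Hnrnpa1 (0.20 over 3 pairs), Snrnp70 (0.15), Hnrnpa2b1 (0.12), Snrpn (0.05 over 3 pairs), Hnrnpk (0.04) and Snrnp25 (-0.002) had limma adjusted p values of 0.563 to 0.996.

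In TAU-P301L motor neurons the most displaced member was Snrnp25, a protein of the U11/U12 particle that recognises the rare minor class of introns. Its log2 ratios were 0.36, 0.28, 0.57 and 0.80 (0.50 ± 0.23, SD, n = 4 pairs, 95% interval 0.29 to 0.72), all above 0. Its unadjusted limma p of 0.0002038 ranked 4 among the 11656 genes tested, and its limma adjusted p was 0.505, with a range of 0.195 to 1 over the alternatives. The mean was 0.32 with the TAU-P301L extract in Cy5 and 0.69 with it in Cy3, and 0.68 and 0.32 in the pairs of scans 1 and 2. Another Snrnp25 probe had a mean of 0.09 ± 0.03 with 4 of 4 pairs above 0, and was well above background in 5 of 8 extracts. In TAU-P301L glia Snrnp25 was again the top member by p, with 0.10, 0.47 and 0.65 in the 3 pairs with a value (0.41 ± 0.28, SD, limma adjusted p = 0.193, from 0.0853 to 0.598 over the alternatives). Its other probe had 0.04 with 4 of 4 pairs above 0, but did not pass the background filter in this comparison. That probe was well above background in 2 of the 8 control glia extracts of both colonies. In the SOD1-G93A mice Snrnp25 lay at -0.06 ± 0.12 in motor neurons and -0.002 ± 0.22 in glia. The difference of SOD1-G93A minus TAU-P301L was -0.56 ± 0.14 (SE, limma adjusted p = 0.296) in motor neurons and -0.41 ± 0.15 (SE, limma adjusted p = 0.638) in glia, so neither passed. Red cell marker sums had a mean log2 ratio of -0.85 in the motor neuron comparison (sums of 298 to 504 in TAU-P301L extracts, against 545 to 897 in controls) and of -0.49 in the glia comparison (449 to 613 in TAU-P301L extracts, against 552 to 1011 in controls), and their part in these ratios was not tested.

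All 7 Sm genes tested in TAU-P301L motor neurons had means above 0, led by Snrpd3, the SmD3 protein, with 0.39, 0.22, 0.09 and 0.86 (0.39 ± 0.34, SD, n = 4 pairs, limma adjusted p = 0.995). The other Snrpd3 probe had a mean of 0.15. Snrpd1 had 0.13, -0.03, 0.07 and 0.16 (0.08 ± 0.08), and Snrpd2 had 0.19, 0.04, 0.05 and 0.02 (0.07 ± 0.08), with the same limma adjusted p of 0.995. The remaining 4 ran from 0.02 for Snrpg to 0.12 for Snrpf. The snRNP median was 0.04 with 17 of 25 genes above 0 (range -0.09 to 0.50), and the hnRNP median was -0.004 with 11 of 25 above 0 (range -0.21 to 0.15), against -0.006 and 46.5% for all genes. All 4 pairs were above 0 for 6 members and below 0 for 2, against 6.51% and 6.12% of all genes. The hnRNP median was 0.04 from Agilent's processed ratios. Genes with the smallest p below 0 were Hnrnpc with -0.05, -0.16, -0.10 and -0.03 (-0.08 ± 0.06), Sf3a1 with -0.15, -0.05, -0.10 and -0.01 (-0.08), Hnrnpul1 (-0.13 ± 0.17) and Hnrnpk (-0.20 ± 0.21), all with a limma adjusted p of 0.995. Snrpn (0.06), Hnrnpa2b1 (0.07), Hnrnpa1 (-0.10), Snrnp70 (-0.03) and Hnrnpu (-0.01) lay close to 0 with limma adjusted p values of at least 0.995.

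In TAU-P301L glia 40 members were tested, the fewest of the 4 comparisons. The snRNP median was 0.02 with 11 of 18 genes above 0 (range -0.23 to 0.41) and the hnRNP median -0.03 with 5 of 20 above 0 (range -0.15 to 0.13), against 0.003 and 50.9% for all genes. With median centring the same medians were 0.21 and 0.12, against 0.07 for all genes, and 19 of 20 hnRNP genes lay above 0, so the sign of the hnRNP median turned with the scaling. After Snrnp25, the smallest p values above 0 belonged to Snrnp35, with 0.03, 0.17, 0.30 and 0.004 (0.13 ± 0.14, SD, n = 4 pairs, limma adjusted p = 0.288), to the U2 subunit Sf3a3 (0.16, limma adjusted p = 0.411) and to Gemin7, a small SMN complex subunit (0.08, 0.20 and 0.37 in 3 pairs, 0.22 ± 0.15, limma adjusted p = 0.518). Below 0, Snrpg had 0.33, -0.20, -0.47 and -0.60 (-0.23 ± 0.41, limma adjusted p = 0.452). Pair 1, whose dye-swapped arrays correlated at -0.745, was the one above 0. Without that pair Snrpg was -0.42 (limma adjusted p = 0.125, from 0.0417 to 0.995 over all alternatives), without pair 4, whose control extract stood apart, it was -0.11, and with median centring it was 0.17. The decay factor Hnrnpd (-0.10, limma adjusted p = 0.607), Hnrnpab (-0.10, limma adjusted p = 0.718) and the G-run binder Hnrnpf (-0.15, limma adjusted p = 0.737) followed. Hnrnpu had 0.27, -0.33, 0.26 and 0.33 (0.13 ± 0.31, limma adjusted p = 0.806), and Snrnp70 (0.02), Hnrnpk (-0.01), Hnrnpa1 (-0.06) and Hnrnpa2b1 (-0.08) had limma adjusted p values above that. The mean of Hnrnpu was -0.69 with the TAU-P301L extract in Cy5 and 0.955 with it in Cy3. Sf3a3 (-0.08 and 0.40), Gemin7 (-0.08 and 0.29) and Snrpg (-0.50 and 0.03) also turned sign with the dye, while Snrnp35 (0.10 and 0.16) did not. All 4 pairs were above 0 for 2 members and below 0 for 0, against 8.88% and 8.89% of all genes. The summed oligodendrocyte markers were at 7340 to 17733 in TAU-P301L glia, against 13145 to 20733 in control glia, with a mean log2 ratio of -0.39. Motor neuron markers had a mean log2 ratio of 0.345 in the same extracts, and the part of either in these ratios was not tested.

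**Figure D4:**
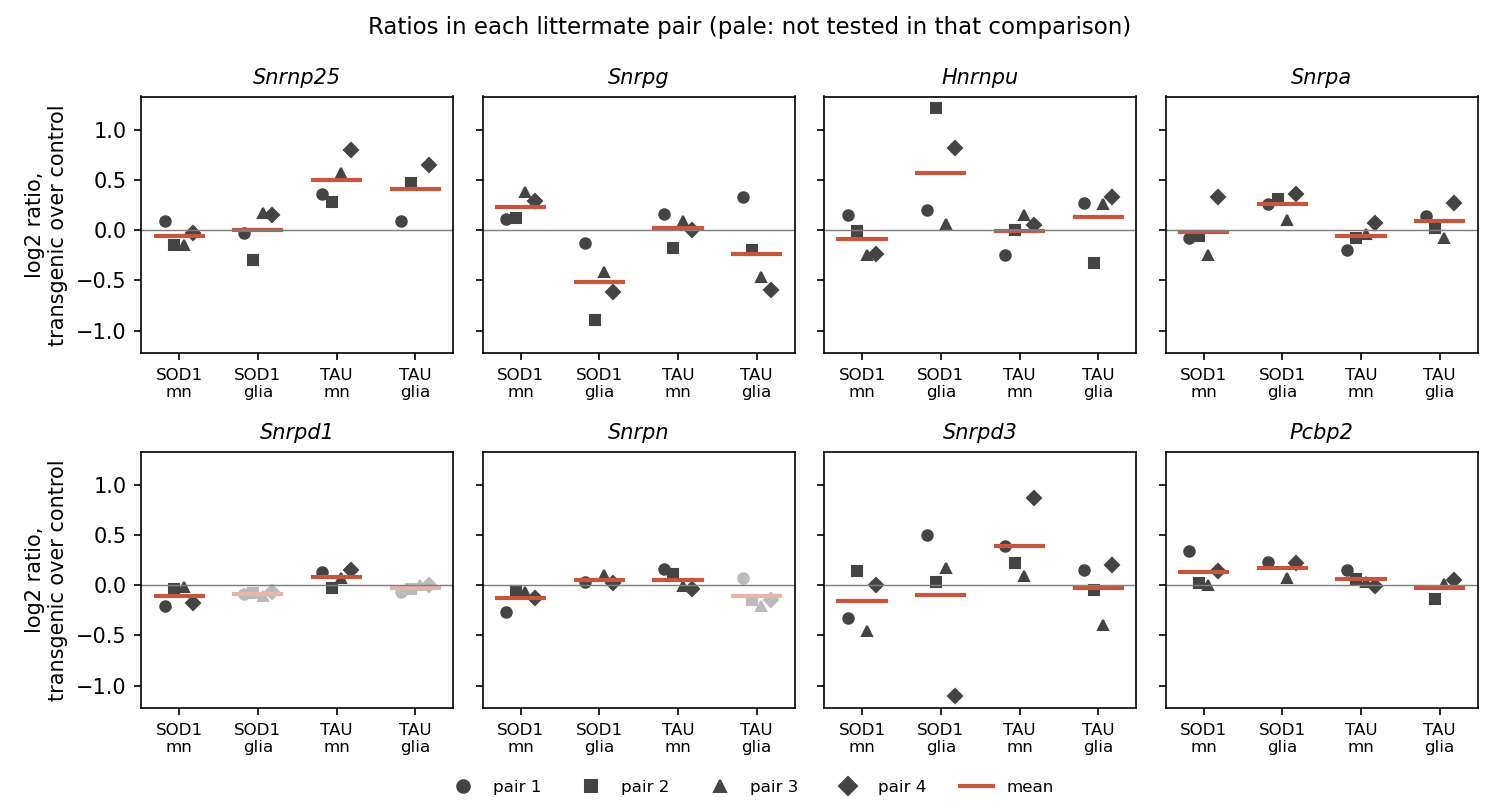
Log2 ratio of transgenic over control in each littermate pair for 8 members, by comparison. Points are pairs, the red line is the mean of up to 4 pairs, and pale points mark comparisons in which the gene was not tested. Snrnp25 lies above 0 in all TAU-P301L pairs measured (means 0.50 and 0.41), Snrpg below 0 in all SOD1-G93A glia pairs (mean -0.51) and Hnrnpu above 0 in the same pairs with a wide spread (0.06 to 1.21).

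The 4 differences between comparisons called 0 members and 0 genes of the whole array (0% of 13955, 12160, 13616 and 10918 genes tested, limma), while 12.9%, 4.95%, 10.2% and 6.19% of genes had an unadjusted p under 0.05 for SOD1-G93A motor neurons minus glia, TAU-P301L motor neurons minus glia, SOD1-G93A minus TAU-P301L motor neurons and SOD1-G93A minus TAU-P301L glia. Snrpg had the largest gap between the SOD1-G93A cell types, 0.74 ± 0.18 (SE, limma adjusted p = 0.120). All 4 motor neuron pairs were above 0 and all 4 glia pairs below 0 for Snrpg, a pattern that 1.22% of all genes showed in either direction, and with median centring its motor neuron mean was -0.06. With loess, the motor neuron mean of Snrpg was 0.44 with the SOD1-G93A extract in Cy5 and 0.01 with it in Cy3. The glia means were -0.36 and -0.67. Hnrnpu differed by -0.66 ± 0.22 (SE, limma adjusted p = 0.195) and Snrpa by -0.28 (limma adjusted p = 0.288) in the same contrast. Between the motor neuron comparisons of the 2 colonies, Snrpd1 differed by -0.19 ± 0.05 (SE, limma adjusted p = 0.296) and Snrpn by -0.18 (limma adjusted p = 0.430). No member had opposite signs in every pair of the 2 motor neuron comparisons (1.26% of all genes) or of the 2 glia comparisons (0.504%). Snrpd2 had opposite signs in every pair of TAU-P301L motor neurons and glia (0.14, limma adjusted p = 0.964), against 0.683% of all genes. Its probe did not pass the background filter in TAU-P301L glia, so its glia ratios rest on dim signal.

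The SMN complex was sparsely measured. Smn1, the survival motor neuron gene itself, was well above background in 2 SOD1-G93A and 1 control extract of the SOD1-G93A motor neuron comparison, in 1 extract of each kind in the TAU-P301L one, and in 0 of 8 glia extracts of either colony, and so was not tested. Gemin2, which holds the Sm ring precursor, and Gemin6 were not tested either. Gemin4 was tested only in TAU-P301L motor neurons (-0.03) and Gemin8 only in SOD1-G93A motor neurons (0.004). Gemin5, which recognises the small nuclear RNAs, and Gemin7 were tested throughout, and Gemin5 had means of 0.004 and 0.06 in SOD1-G93A motor neurons and glia and of -0.04 and -0.06 in TAU-P301L motor neurons and glia, with limma adjusted p values of 0.708 to 0.995. Another 10 members were tested nowhere, among them the Sm gene Snrpb, which was well above background in 1 transgenic and 1 control extract of SOD1-G93A motor neurons and of TAU-P301L glia, and Sf3b1, the branch-site protein mutated in blood cancers, which reached it in 1 SOD1-G93A and 1 TAU-P301L glia extract. The rest were Lsm2, Sf3a2, Sf3b3, Snrpa1, Hnrnpul2, Rbmxl2, Hnrnpa1l2-ps and Hnrnpa1l2-ps2. The last 2 carry pseudogene names, but RefSeq lists only Hnrnpa1l2-ps as a pseudogene and Hnrnpa1l2-ps2 as protein-coding. In all, 38 members were tested in every comparison, and 13 of the 191 tested combinations of member and comparison lacked a value for 1 pair or more.

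For 40 members the array carried several probes, and the brightest was used. In the control comparison 11 of 27 second probes of 22 members (40.7%) had the opposite sign to the brightest one, against 39.3% over all genes with several passing probes. Hnrnpk had -0.57 from its brightest probe and 1.24 from another, and Hnrnpul1 had 0.20 and -1.16. Hnrnpab (-0.55 and 0.45), Hnrnpdl (-0.47 and 0.47), Hnrnpa2b1 (-0.34 and 0.45) and Hnrnpll (0.23 and -0.57) split in the same way, so the sign for these hnRNP genes holds for 1 probe and not for the gene. Transcript isoforms bound by each probe were not analysed here. The shares with opposite sign in the transgenic comparisons were 30% of second probes in SOD1-G93A motor neurons, 73.3% of 15 in SOD1-G93A glia, 21.7% in TAU-P301L motor neurons and 50% in TAU-P301L glia, against 41.4%, 42.2%, 39.9% and 42.7% over all genes.

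**Figure D5:**
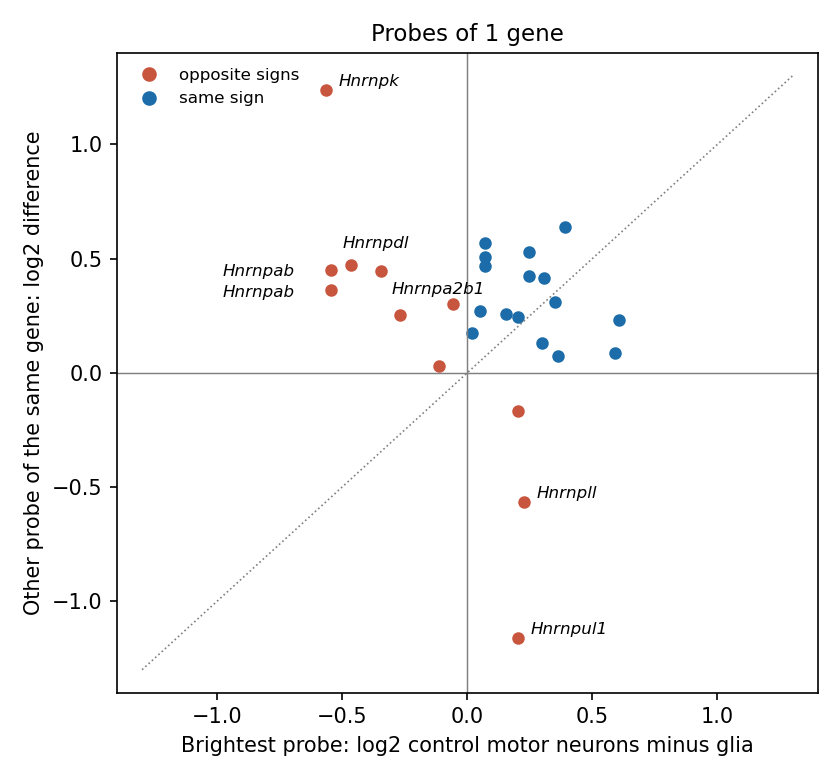
Log2 difference of control motor neurons minus control glia for members with several probes, the brightest probe on the horizontal axis and another probe of the same gene on the vertical axis. Red points have opposite signs (11 of 27) and blue points the same sign, and the dotted line marks equal values. Hnrnpk lies at -0.57 and 1.24.

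Related genes outside the rule were also examined, with 0 called by limma in each of the 4 transgenic comparisons in 6 lists, and with calls between control cell types, where 27.5% of all genes were higher and 12% lower in motor neurons and the median of all genes was 0.11. Of the SR proteins, which bind exonic enhancers, 5 of 12 tested were higher in motor neurons and 0 lower (median 0.22), among them Srsf6 (0.41, limma adjusted p = 0.00285). Of the other spliceosome subunits 14 of 32 were higher and 1 lower (median 0.21), among them the U5 subunit gene Txnl4a (1.11, limma adjusted p = 0.00044). Of the Lsm proteins 3 of 8 were higher and 0 lower (median 0.22), and of the assembly and import partners of snRNPs 5 of 8 were higher and 1 lower (median 0.41), among them the SMN-associated Strap (0.77). Neuronal and tissue splicing regulators had 7 of 23 higher and 2 lower (median 0.18), including the neuronal Elavl4 (1.51) and the ubiquitous Elavl1 (-0.60). Of 4 RNA-binding proteins of motor neuron disease, 2 were higher, Tardbp, which encodes TDP-43 (0.36, limma adjusted p = 0.00393), and Ewsr1 (0.68). As with the members, these lists can hold genes tested only because their probe was well above background in motor neurons. Over the array 4156 of the 13054 genes tested were of this kind. Their number in each list was not counted, so nothing is read from shares above 27.5%. In SOD1-G93A motor neurons means were above 0 for 2 of 12 SR proteins (median -0.07), 11 of 32 other spliceosome subunits (-0.03), 5 of 8 Lsm proteins (0.06), 3 of 8 assembly and import partners (-0.03), 10 of 23 splicing regulators (-0.02) and 1 of 4 motor neuron disease proteins (-0.04), so the lists did not all lean one way.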

How the data were processed

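Per the labels' protocols, cells were captured by laser from 12 µm sections stained with cresyl violet, and RNA was purified and amplified linearly with an Agilent kit for low RNA input. The authors deposited linear spot intensities, read with Agilent Feature Extraction. The version is 8.5.1.1 per the submitters' processing notes, whereas per the file headers the glia files carry 9.5.1.1. The authors' deposited value table gives a log10 ratio per probe, with transgenic on top and 1 decimal, which followed each array's scanner log10 ratio with absolute correlations of 0.982 to 0.999 and had a median of 0 in every array. It served as an alternative.

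Mean spot intensity was corrected with normexp (offset 50) and normalized by loess within arrays in limma 3.58.1 (R 4.3.3), with control spots at weight 0 and outlier-marked spots left out. Log2 ratios were turned to transgenic over control by the labels' dyes and each pair's dye-swapped arrays were averaged. The brightest probe stood for its gene, which was tested where well above background on both arrays of at least 4 of 8 extracts. Names came from the RefSeq gene table, matched by accession (23374 probes), symbol (6733) or synonym (2919), and 8148 kept the name in the file. All 16 pairs entered 1 limma fit, with Benjamini-Hochberg adjustment over all genes tested and a threshold of 0.05. For control levels, channels were separated after loess and Aquantile, and the colony was a covariate. The code was tested on simulated data with known changes. The number of arrays limits the precision of every value.

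Members and lists were chosen with earlier results of these data known. Named genes were every member that passed, the 4 smallest p in each direction per transgenic comparison, the 8 in each direction between control cell types, and Snrpn, Snrpb, Smn1, Snrnp70, Snrnp25, Sf3b1, Hnrnpa1, Hnrnpa2b1, Hnrnpk and Hnrnpu throughout. Other named genes were chosen after their values were seen. Each slide held 1 array, so slide could not be a block. The 6 scans were used as a random block and within-scan values were computed where a scan held 2 pairs of a comparison.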

Additional observations from a re-analysis of the deposited data

Results flagged for a closer look

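The values below were each separated from the other samples of their group by a gap large for the group's range (Dixon's test). Among 100 groups tested 12 were marked, and chance alone marks about 1 in 20 groups. Of the transgenic comparisons, Hnrnpdl had a log2 ratio of 0.918 in pair 4 of SOD1-G93A motor neurons, against -0.115 to -0.034 in the other pairs. Hnrnpu had -0.33 in pair 2 of TAU-P301L glia, against 0.261 to 0.33 in the others.

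A total of 8 of the 12 belong to 1 extract, the control motor neurons of SOD1-G93A pair 3, which also correlated least with the other control extracts. Its log2 intensity was low for Hnrnpr at 6.408 (6.791 to 7.098 in the other 7 extracts), Ddx42 at 6.682 (7.067 to 7.325), Snrpg at 7.611 (8.791 to 9.34), Hnrnpdl at 6.39 (6.885 to 7.162), Hnrnpab at 8.004 (9.093 to 9.991) and Hnrnpa1 at 7.062 (8.137 to 8.893). It was high for Snrnp48 at 7.007 (6.301 to 6.481) and Snrpe at 7.11 (6.18 to 6.525). The control glia extract of TAU-P301L pair 4 accounts for the other 2, with Hnrnpab at 8.673 (9.71 to 10.644 in the others) and Snrpn at 7.156 (6.302 to 6.556).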

How the results depend on the processing

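Over 80 member results and 1549 alternative values, 1421 kept their direction and side of the threshold, 77 turned sign, 44 no longer passed and 7 passed only there. The number of members called was 0 in the 4 transgenic comparisons under every alternative run, except that TAU-P301L glia within scan 4 gave 1 (Snrpg, -0.533, limma adjusted p = 0.0417, against 148 genes called over the array). Over the array the alternatives called 0 to 39 genes in SOD1-G93A motor neurons, 0 to 25 in SOD1-G93A glia, 0 to 14 in TAU-P301L motor neurons and 0 to 148 in TAU-P301L glia. Between control cell types 15 members passed. Leaving out 1 pair gave 13 to 24, the highest without SOD1-G93A motor neuron pair 3, and 23 passed without the 2 extracts that stood apart (chosen after seeing the data). Within SOD1-G93A littermates 3 passed, within TAU-P301L littermates 11, and 0 of the 2 that could be tested passed with probes required above background in every extract. With no filter 16 passed, 12 higher and 4 lower. With the replicate number as a block 15 passed, the same 15 genes, and 0 in the transgenic comparisons. The block moved the genes called over the array to 0 in SOD1-G93A motor neurons, against 1, and to 25 in SOD1-G93A glia, against 8. The labels do not say that a number marks the same animal, and same-number correlations of motor neuron and glia deviations ran from -0.077 to 0.238 for ratios and from -0.162 to 0.446 for control levels, so a pairing was not established.

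The snRNP median in SOD1-G93A motor neurons (-0.081 over 25 genes) was -0.16 from Agilent's processed ratios, -0.153 with median centring, -0.166 from the deposited table and -0.084 to -0.056 when 1 pair was left out. It was -0.056 with no filter (31 genes) and -0.133 with probes above background in all extracts, when 3 snRNP genes were left. The hnRNP median there (-0.072) was -0.196 with median centring, 0.058 within scan 2 and -0.099 to 0.003 when 1 pair was left out, and the SMN complex median (0.004) was 0.087 without background correction, 0.102 from Agilent's ratios, 0.088 with all extracts above background and 0.104 from the deposited table. In SOD1-G93A glia the hnRNP median (0.073) was 0.157 from Agilent's ratios, 0.303 with median centring, 0.145 from the deposited table, 0.003 within scan 3 and 0.037 to 0.14 when 1 pair was left out, and the snRNP median was 0.129 with median centring. In TAU-P301L glia median centring gave 0.208, 0.201 and 0.115 for the snRNP, SMN complex and hnRNP medians, the deposited table gave 0.104 for the snRNP genes, and the SMN complex median ran from -0.092 to 0.059 when 1 pair was left out. That median covers 2 genes, Gemin5 and Gemin7. Gemin7 lacked a value in 1 pair and was not tested in fits that left out another, so those medians are Gemin5 alone. Between control cell types the snRNP median was -0.274 with probes above background in all extracts, when 1 snRNP gene was left. Apart from such changes in the genes tested, the cause of these shifts was not tested.

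Single genes turned sign as follows. In SOD1-G93A motor neurons this was so without background correction (Hnrnpk 0.053), from Agilent's processed ratios (Hnrnpk 0.051), with median centring (Pcbp2 at 0, Snrpg -0.064, Hnrnpdl -0.032), with the mean over probes (Snrnp70 0.005), from the deposited table (Hnrnpk 0.083) and within scan 2 (Hnrnpdl -0.082, Hnrnpll 0.018, Hnrnpa1 0.058, Hnrnpa2b1 0.07, Hnrnpk 0.104, Hnrnpu 0.071). In SOD1-G93A glia Snrnp25 turned without background correction (0.008), from Agilent's ratios (0.046), with median centring (0.184), from the deposited table (0.042), within scan 3 (0.162) and without the pair of scan 5 (0.098), Snrnp70 (-0.015) and Hnrnpa2b1 (-0.004) with the mean over probes, and Hnrnpa2b1 within scan 3 (-0.009). In TAU-P301L motor neurons it was so from Agilent's ratios (Snrnp70 0.003, Hnrnpu 0.024), with the mean over probes (Hnrnpu 0.016), within scan 1 (Hnrnpul1 0.008, Snrpn -0.023, Snrnp70 0.158, Hnrnpu 0.102) and within scan 2 (Hnrnpa2b1 -0.045). In TAU-P301L glia it was so without background correction (Snrnp70 -0.008, Hnrnpk 0.008), from Agilent's ratios (Hnrnpa1 0.006, Hnrnpk 0.041), with median centring (Snrpg 0.166, Hnrnpab 0.229, Hnrnpf 0.083, Hnrnpa1 0.159, Hnrnpa2b1 0.191, Hnrnpk 0.355), with the mean over probes (Snrnp70 -0.051, Hnrnpa2b1 0.032, Hnrnpk 0.041), from the deposited table (Hnrnpk 0.042), within scan 4 (Hnrnpd 0.013, Hnrnpf 0.069, Hnrnpk 0.217) and without the pair of scan 5 (Hnrnpk 0.1). In the control comparison it was so without background correction (Hnrnpu -0.041), with the mean over probes (Hnrnpdl 0.004, Hnrnpll -0.147, Hnrnpab 0.124, Hnrnpk 0.336, Hnrnpa2b1 0.052), without the pairs of scan 5 (Snrnp25 0.01, Hnrnpu -0.121), with quantile normalization over all channels (Hnrnpu -0.003) and within SOD1-G93A littermates (Snrpn 0.048, Hnrnpu -0.099). Leaving out 1 pair turned signs within these ranges, in SOD1-G93A motor neurons for Hnrnpdl (-0.066 to 0.278), Hnrnpa1 (-0.312 to 0.02), Hnrnpa2b1 (-0.242 to 0.061) and Hnrnpk (-0.21 to 0.065), in SOD1-G93A glia for Eftud2 (-0.161 to 0.007), Snrnp25 (-0.059 to 0.098) and Hnrnpk (-0.084 to 0.103), in TAU-P301L motor neurons for Snrnp70 (-0.107 to 0.046) and Hnrnpu (-0.065 to 0.068), in TAU-P301L glia for Snrnp70 (-0.077 to 0.107) and Hnrnpk (-0.136 to 0.1), and between controls for Hnrnpu (-0.062 to 0.158). Probes dim in glia limit 9 of the 15 control calls.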
